A study of Homo sapiens with 8 samples.

Results

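The regions described here are IGF2BP1 binding sites in the last coding exon, the exon that holds the stop codon. They were taken from the 2 deposited peak lists by position alone: a peak was included when it overlapped, by at least 1 nt on the same strand, the coding (CDS) part of that exon in a MANE Select transcript of GENCODE release 44, and when the whole peak lay more than 100 nt upstream of the end of the stop codon. By this rule 480 of the 22311 peaks of the DMSO list (2.15%, 95% Wilson interval 1.97 to 2.35%) and 517 of the 22123 peaks of the AVJ16 list (2.34%, 2.15 to 2.54%) were chosen. The 480 DMSO peaks lay in 236 genes and formed 387 separate sites once touching peaks were joined, and the 517 AVJ16 peaks lay in 247 genes and formed 423 sites. In all 328 genes had such a peak, of which 155 had one in both lists, 81 only with DMSO and 92 only with AVJ16.

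The study profiled IGF2BP1 by eCLIP, in which protein and RNA are joined by UV light, the protein is precipitated with its RNA, and the reads are set against a size-matched input (SMInput) of the same lysate. The cells were H1299, an established line from a human non-small cell lung carcinoma, of wild-type genotype in every sample. They were given either 1.5 µM AVJ16, a small molecule studied as an IGF2BP1 inhibitor, or 0.01% DMSO, for 24 h, with 2 precipitates and 2 inputs for each treatment. Each treatment has 1 peak list in which both replicates are combined, so no value below has a replicate error and no test between the treatments was possible. Intervals are 95% intervals that cover counting error only, and several peaks of one exon are not independent of each other.

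IGF2BP1 is an oncofetal RNA-binding protein with RRM and KH domains that is known for stabilizing its target mRNAs. Most of its binding is in 3' UTRs, but one of its classical sites lies inside a reading frame, near the end of the coding sequence of MYC, and it also belongs to the proteins described as readers of N6-methyladenosine (m6A), a modification that is concentrated in long exons and around stop codons. A site in the last coding exon is crossed by translating ribosomes, unlike one in the 3' UTR of the same exon.

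The sequences of 9 binding sites are shown because they include the most enriched peaks and those with the largest differences between the treatments. They are the sense strand of hg38, 5' to 3', written as RNA. Capitals mark any match to the 9 short motifs searched, and a sequence without capitals holds none of them. Those motifs began with GGAC, with its longer forms UGGAC and also GGACU, which is the core of the m6A consensus. Then came elements described for the KH domains of IGF2BP proteins: ACACA, further CAUUC, next CAUAC, and lastly GGCA. The study gave UCCAG together with CCNGUU. Apart from 2 peaks of the RPSA2 gene copy, the most enriched of these peaks in the DMSO list was in SLC35A4, a member of the nucleotide sugar transporter family, at chr5:140567524-140567638 on the + strand, 506 nt upstream of the end of the stop codon.
SLC35A4: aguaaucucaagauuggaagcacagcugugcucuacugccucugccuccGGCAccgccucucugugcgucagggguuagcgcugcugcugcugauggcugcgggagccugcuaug
Both USF3 peaks below adjoin each other on the - strand, at chr3:113659435-113659509 and chr3:113659510-113659572, and fell the most with AVJ16 within the exon that held the most peaks. USF3 is a basic helix-loop-helix protein related to the upstream stimulatory factors.
USF3, first: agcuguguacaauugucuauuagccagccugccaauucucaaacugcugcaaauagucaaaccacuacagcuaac
USF3, second: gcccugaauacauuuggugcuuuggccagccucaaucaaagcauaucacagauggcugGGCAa
GPR160, an orphan G protein-coupled receptor read from a single coding exon, had its strongest peak at chr3:170084643-170084793 on the + strand.
GPR160: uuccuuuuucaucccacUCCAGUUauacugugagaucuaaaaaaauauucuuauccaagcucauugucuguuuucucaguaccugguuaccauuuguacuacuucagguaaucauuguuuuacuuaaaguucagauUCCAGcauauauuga
MEX3C, itself a KH-domain RNA-binding protein and ubiquitin ligase, held the peak with the largest rise, at chr18:51176888-51176964 on the - strand.
MEX3C: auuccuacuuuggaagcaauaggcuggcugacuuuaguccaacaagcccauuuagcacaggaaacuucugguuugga
The TET2 peak that rose lay at chr4:105275826-105275878 on the + strand. TET2 oxidizes 5-methylcytosine in DNA.
TET2: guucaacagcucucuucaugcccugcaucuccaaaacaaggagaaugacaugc
The NOTCH2 peak at chr1:119915446-119915488 on the - strand stands for an exon whose values were nearly the same in both lists.
NOTCH2: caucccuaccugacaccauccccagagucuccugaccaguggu
The peaks of DSG2, a desmosomal cadherin, and LGR4, a receptor for R-spondins in WNT signalling, were among the most enriched in the AVJ16 list, at chr18:31546549-31546580 on the + strand and chr11:27368007-27368092 on the - strand.
DSG2: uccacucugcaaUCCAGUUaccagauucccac
LGR4: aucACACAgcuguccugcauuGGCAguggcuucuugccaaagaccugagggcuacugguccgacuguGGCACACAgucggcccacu

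These peaks were of moderate strength. In the DMSO list the median log2 fold enrichment over SMInput was 3.50, with an interval of 3.44 to 3.53, and in the AVJ16 list it was 3.48, with one of 3.43 to 3.53. The lowest value of either list is 3.00. Internal coding exons gave 3.45 and 3.44, the 100 nt on either side of the end of the stop codon 3.61 and 3.52, and 3' UTRs 3.71 and 3.67. Enrichments of 4 and above were reached by 104 of the 480 DMSO peaks (21.7%). This share differed from that of 3' UTR peaks by -11.8 percentage points (-15.3 to -7.81) and from that of internal coding exon peaks by 4.81 points (1.06 to 8.94). With AVJ16 97 of 517 (18.8%) reached it, a difference of -12.3 points from 3' UTR peaks (-15.5 to -8.65) and of 3.13 points from internal exons, the latter with an interval of -0.25 to 6.92 that includes 0. The deposited -log10 p, which stops at 400, was at that ceiling for 2 peaks in each list, and its median was 11.1 with DMSO and 11.0 with AVJ16.

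The rule itself favours long exons, since a last coding exon of up to 100 nt cannot hold such a peak and one of up to 200 nt has little room for it, so the lengths below are a description. The CDS part of the last coding exon had a median of 820.5 nt in the 236 genes with such a peak in the DMSO list, against 145 nt in the 4398 genes that had a peak elsewhere only and 168 nt over all 19061 MANE Select transcripts. The median in the AVJ16 list was 786 nt. Of the 4398 genes 1322 (30.1%) had no room for such a peak. With only exons above 200 nt counted, the medians were 897 nt in 219 genes with such a peak and 365 nt in 1368 without, and 941.5 and 367.5 nt with AVJ16, where a longer exon still offers more room. Among genes with any peak in the DMSO list, 17 of 3047 (0.56%) with a last coding exon of up to 200 nt had such a peak, compared with 64 of 268 (23.9%) at 1001 to 2000 nt and 35 of 75 (46.7%) above 2000 nt. Per kb of CDS more than 100 nt upstream of the end of the stop codon the differences were much smaller. This coverage counted every peak of the list, including parts of peaks around the stop codon that reach into this stretch. Peaks covered 27.1 nt per kb in the shortest class and 52.4, 36.9, 41.0 and 51.5 nt per kb in the following classes. The corresponding values with AVJ16 were 45.7, 58.1, 34.4, 51.2 and 46.4 nt per kb. Longer exons more often held such a peak, while coverage per kb did not keep rising with length above 200 nt.

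**Figure D1:**
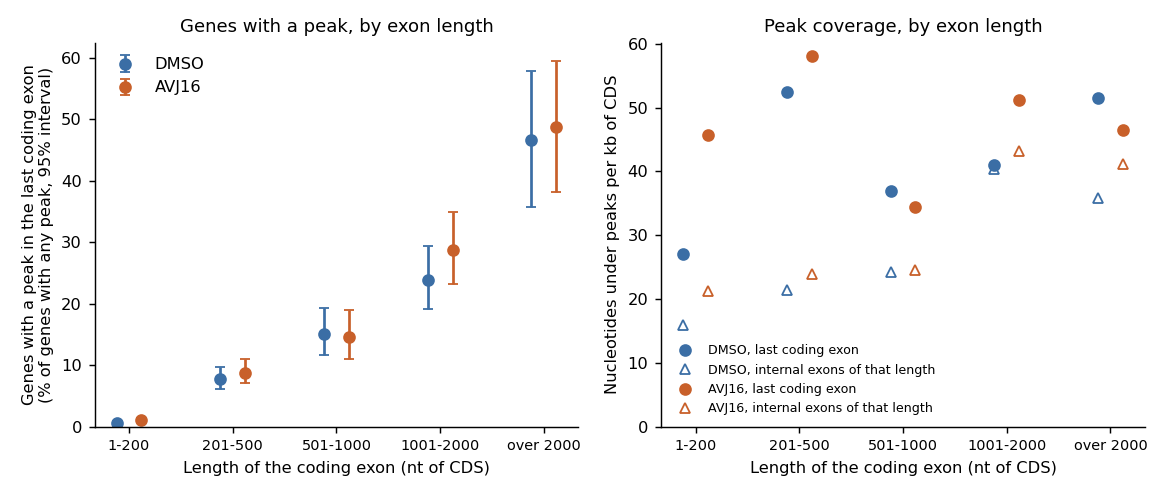
Left, share of bound genes with a peak in the last coding exon against the length of its CDS part (nt), with 95% Wilson intervals, for DMSO and AVJ16. Right, nucleotides under any peak of the list per kb of CDS in last coding exons (circles) and internal coding exons of the same length class (triangles). The share of genes reaches 46.7% and 48.8% above 2000 nt, while coverage per kb stays between 34.4 and 58.1 nt in every last coding exon class above 200 nt.

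Over the 986 genes with more than 1 coding exon and a coding peak in the DMSO list, the last coding exon held 1.54 peaks per kb and the internal coding exons 1.19, a ratio of 1.30 (1.17 to 1.44). The AVJ16 list gave 1.57 and 1.32 peaks per kb over 1061 genes, a ratio of 1.19 (1.07 to 1.31). Counted as nucleotides under peaks the ratios were 1.89 and 1.70. The peaks were longer there, with a median of 77 nt against 51 nt with DMSO and 69 nt against 47 nt with AVJ16. These ratios mix exon lengths. In the length classes used above, over all bound genes, DMSO peaks covered 15.9, 21.4, 24.3, 40.3 and 35.8 nt per kb of internal coding exons. Last coding exons had 27.1, 52.4, 36.9, 41.0 and 51.5. With AVJ16 these were 21.2, 23.9, 24.5, 43.3 and 41.2 against 45.7, 58.1, 34.4, 51.2 and 46.4. Coverage by distance again counted every peak of the list. In the DMSO list the first 100 nt after the upstream exon junction were covered least, at 31.3 nt per kb against 51.2 in the next 100 nt and 63.7 from 801 to 1600 nt. The AVJ16 list gave 45.2, 56.2 and 66.9 nt per kb at the same distances, but 45.6 at 201 to 400 nt and 47.8 beyond 1600 nt. In the DMSO list the first 100 nt were counted over 3096 exons and 801 to 1600 nt over 258, so distance is mixed with exon length. Measured from the stop codon there was little slope, with 47.2 nt per kb at 101 to 200 nt and 51.2 beyond 1600 nt in the DMSO list, and 56.7 and 45.4 in the AVJ16 list. The median peak ended 492 nt upstream of the end of the stop codon with DMSO and 451 nt with AVJ16, and the most distant ones 5788 and 9524 nt upstream. On either side of the 100 nt limit the medians were close, with opposite order in the lists. DMSO peaks ending at 101 to 150 nt had a median log2 fold enrichment of 3.44 (n = 77) and those ending at 51 to 100 nt, which were not included, 3.51 (n = 88). With AVJ16 these were 3.50 (n = 85) and 3.40 (n = 110). An overlapping peak of the other list was present for 58.4% and 62.5% with DMSO, and for 60.0% and 52.7% with AVJ16.

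Most genes of this kind also had a 3' UTR peak. Of the 236 genes in the DMSO list, 141 (59.7%) also had a 3' UTR peak, 94 (39.8%) a peak around the stop codon and 72 (30.5%) one in an internal coding exon. Genes with a peak in an internal coding exon, which were also chosen by a coding peak, had a 3' UTR peak in 543 of 861 cases (63.1%) and one around the stop codon in 293 (34.0%). Over all 4634 genes with an assigned peak these shares were 87.2% and 24.2%, but most of those genes were counted through a 3' UTR peak in the first place. In 52 of the 236 genes (22.0%) the last coding exon held the only assigned peaks, and 51 of these had no unassigned peak within the transcript, introns included, either. With AVJ16 163 of 247 (66.0%) had a 3' UTR peak, 122 (49.4%) one around the stop codon and 93 (37.7%) one in an internal coding exon, and 41 (16.6%) had no other peak within the transcript. RFX7, a winged-helix transcription factor, was an example, with 12 peaks in the DMSO list and 15 in the AVJ16 list, all in the last coding exon and none elsewhere in the transcript or its introns. NOTCH2, a receptor of the Notch pathway, was the opposite, with 8 and 11 such peaks beside 30 and 36 in its 3' UTR. MYC had no peak among those described: its 4 DMSO peaks lay around the stop codon and in the 3' UTR, at 3.56 to 4.83, and its 1 AVJ16 peak in the 3' UTR at 4.95.

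The base composition under the peaks differed from that of the rest of the same exons. In the 39261 nt of CDS under DMSO peaks cytosine made up 30.0% and guanine 19.2%, compared with 25.8% and 23.5% in the 185422 nt of these exons outside every peak of either list. Uracil was higher (25.1% against 23.2%) and adenine lower (25.8% against 27.5%), and the GC content was nearly the same, at 49.1% in windows of 100 nt centred on the peaks and 49.4% in tiles of 100 nt outside peaks. The AVJ16 list gave the same order, with cytosine at 29.2% against 25.3% and guanine at 19.6% against 23.2%. Among the 178 genes with at least 50 nt both under and outside peaks in the DMSO list, cytosine was more frequent under the peaks in 135 (75.8%) and guanine less frequent in 143. With AVJ16 the numbers were 126 and 134 of 171. The excess of cytosine was greatest at codon position 2, at 33.1% under DMSO peaks against 26.4% outside, where adenine differed by -4.94 percentage points. The deficit of guanine was greatest at codon position 1, at 23.1% against 29.0%. The NOTCH2 peak printed above shows this composition, with 41.9% cytosine and 16.3% guanine, and the SLC35A4 peak goes against it, with 30.4% guanine.

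**Figure D2:**
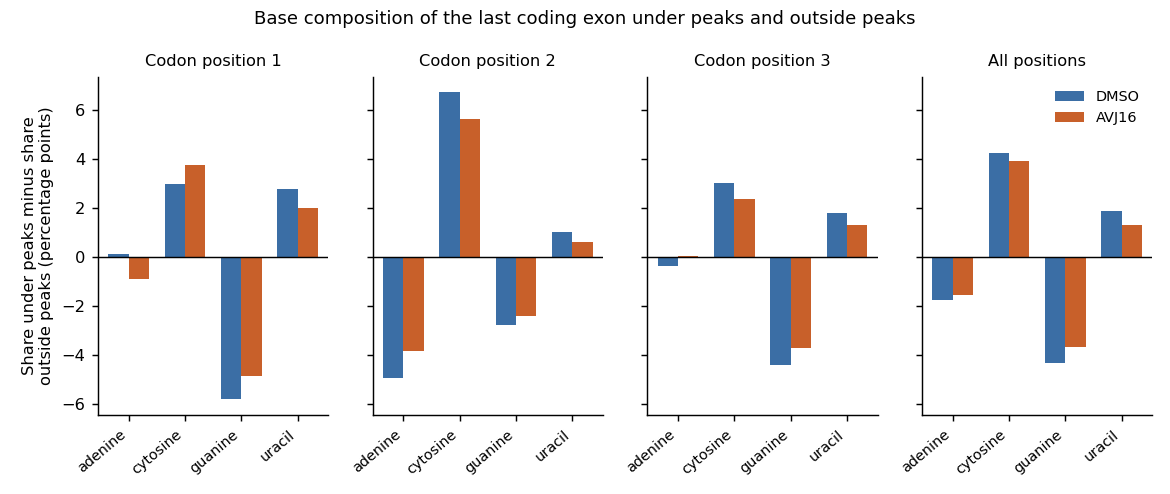
Share of each base under peaks minus its share outside peaks in the same last coding exons, in percentage points, by codon position and over all positions, for the DMSO (blue) and AVJ16 (orange) lists. Over all positions cytosine lies above 0 by 4.23 and 3.92 points and guanine below 0, at -4.34 and -3.66.

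Motifs were counted in windows near the peaks and in tiles of the same exons outside peaks, and again with 2 other settings: with tiles from the last coding exons of all MANE Select transcripts, and with the peaks as deposited against tiles of their median length (77 nt with DMSO and 69 nt with AVJ16). Of the 9 motifs only CAUUC had a ratio above 1 with an interval that excluded 1 in both lists under every setting. CAUUC, one of the elements described for the KH domains of IGF2BP proteins, was in 60 of 460 DMSO windows of 100 nt (13.0%) and 130 of 1471 tiles (8.84%), a ratio of 1.48 (1.11 to 1.97). In the AVJ16 list it was in 71 of 488 windows (14.5%) against 8.55% of 1614 tiles, a ratio of 1.70 (1.30 to 2.22). Against all transcripts the ratios were 1.61 (1.27 to 2.05) and 1.80 (1.45 to 2.24), and with the peaks as deposited 1.53 and 1.71. GGACU gave 10.4% against 7.55% with DMSO (ratio 1.38, 1.002 to 1.91) and 11.1% against 7.001% with AVJ16 (1.58, 1.16 to 2.15), but against tiles of all transcripts the intervals included 1, at 1.19 (0.91 to 1.56) and 1.26 (0.98 to 1.63). The shorter GGAC showed no such difference, at 29.6% against 30.0% and 29.3% against 28.6%, with intervals of the ratio of 0.84 to 1.16 and 0.88 to 1.20, although it was lower with AVJ16 against all transcripts (0.870, 0.758 to 0.9995). Of the motifs named by the study, CCNGUU was in 12.4% of DMSO windows against 9.18% of tiles (1.35, 1.01 to 1.81) and in 11.1% against 8.86% with AVJ16 (1.25, 0.93 to 1.68). The AVJ16 ratio rose to 1.74 (1.35 to 2.25) against all transcripts and 1.81 (1.33 to 2.48) with the peaks as deposited. UCCAG was in 21.7% against 19.3% and 19.7% against 18.4%, with both intervals including 1, but with DMSO it gave 1.22 (1.02 to 1.45) and 1.32 (1.07 to 1.62) under the other settings. The other 3 motifs that the study names were searched after the first results, with N at each open position. UUUCCGAA, its most common one, was in 1 window of each list and in 5 and 4 tiles. GNGGCCC gave ratios of 0.78 (0.45 to 1.33) and 0.68 (0.37 to 1.26), and UCCUNNUGG of 1.88 (0.87 to 4.08) and 2.07 (0.94 to 4.53). GGCA was less frequent in DMSO windows, at 30.9% against 36.9% (ratio 0.84, 0.72 to 0.97), and at 32.0% against 35.9% with AVJ16 (0.89, 0.77 to 1.03). With the peaks as deposited the DMSO interval included 1 (0.75 to 1.05), and against all transcripts the AVJ16 interval did not (0.70 to 0.91). The ratios for ACACA in both lists, for CAUAC in both lists, and for UGGAC in both lists ran from 1.04 to 1.31, all with intervals that included 1. For ACACA this depended on the setting, at 1.31 (1.03 to 1.65) and 1.27 (1.01 to 1.60) against all transcripts and 1.53 (1.15 to 2.03) and 1.52 (1.14 to 2.02) with the peaks as deposited. Only the sense strand was read, motifs that contain one another were counted separately, and a match is not evidence of a binding site. Windows of adjoining peaks can overlap, so that a motif copy can be counted more than once, while the tiles do not overlap. The intervals treat all windows as independent. The deposited peaks ran from 3 to 216 nt with DMSO and from 2 to 195 nt with AVJ16, while their tiles had 1 length per list. That setting was therefore not matched in length, and a longer peak holds more positions for a match. In no setting were the tiles matched to the peaks in base composition, although cytosine and uracil were higher and guanine lower under the peaks. Whether base composition alone would give these ratios was not tested.

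A peak was called shared when a peak of the other list overlapped it by at least 1 nt. Of the 480 DMSO peaks 321 (66.9%, 62.5 to 70.9%) had an AVJ16 partner and 159 (33.1%) had none, against 33.8% without a partner over the whole DMSO list. Of the 517 AVJ16 peaks 325 (62.9%, 58.6 to 66.9%) had a DMSO partner and 192 (37.1%) had none, against 29.2% over the whole AVJ16 list. The share of AVJ16 peaks with a DMSO partner differed from that of 3' UTR peaks by -12.3 points (-16.6 to -8.16) and from that of internal coding exons by 6.19 points (1.62 to 10.6). The corresponding differences for DMSO peaks were -3.81 points (-8.20 to 0.31) and 3.17 points (-1.52 to 7.63), and both intervals include 0.

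Sharing rose with enrichment. DMSO peaks with a log2 fold enrichment of 3 to 3.25 had a partner in 63 of 131 cases (48.1%), and those of at least 4.5 in 36 of 39 (92.3%). With AVJ16 the shares were 85 of 155 (54.8%) and 28 of 31 (90.3%). In the range of 4 to 4.5, 60 of 65 DMSO peaks (92.3%, 83.2 to 96.7%) but 46 of 66 AVJ16 peaks (69.7%, 57.8 to 79.4%) had a partner. Internal coding exon peaks in the same range were also shared less in the AVJ16 list, at 75.3% (70.7 to 79.5%) against 86.9% with DMSO. The 3' UTR peaks of the AVJ16 list in this range reached 86.6%. Genes with a single coding exon had fewer shared DMSO peaks, 40 of 79 (50.6%) against 70.1% in the other genes, a difference of -19.4 points (-31.1 to -7.74). In the AVJ16 list the difference was -4.30 points (-16.7 to 7.31). Genes with symbols of the numbered C2H2 zinc finger families (ZNF, ZFP, ZSCAN, ZKSCAN, ZBTB, KLF and SALL) shared 9 of 22 DMSO peaks and 8 of 24 AVJ16 peaks. The differences from the other genes were -27.2 points (-45.3 to -6.39) and -31.0 points (-46.9 to -10.5). Their DMSO peaks reached at most 3.79 and their AVJ16 peaks at most 4.63, and enrichment was not matched in this contrast. This contrast is one of symbols: 16 further genes known for C2H2 fingers, such as ZFHX3, RLF and PLAGL1, chosen after the values were seen, shared 20 of 26 DMSO peaks and 23 of 34 AVJ16 peaks. With them the C2H2 genes shared 29 of 48 (60.4%) and 31 of 58 (53.4%), against 67.6% and 64.1% in the remaining genes.

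**Figure D3:**
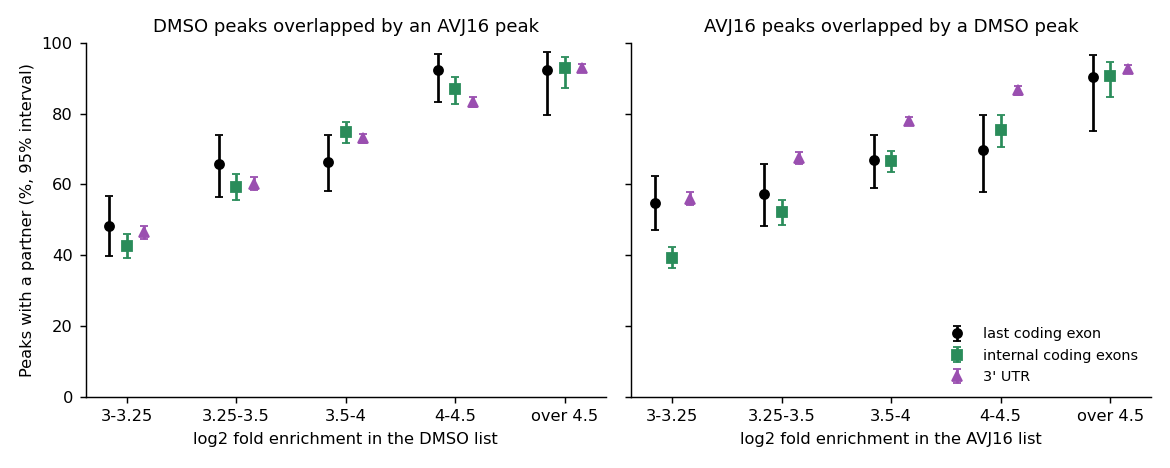
Share of peaks overlapped by a peak of the other list, by range of log2 fold enrichment, for peaks in the last coding exon (circles), internal coding exons (squares) and 3' UTRs (triangles), with 95% Wilson intervals. In both lists the share in the last coding exon goes from 48.1 to 54.8% in the lowest range to above 90% in the highest.

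At the 321 shared DMSO peaks the log2 fold enrichment with AVJ16 minus that with DMSO had a median of -0.04 (-0.10 to -0.01), with a range of -1.83 to 1.78 and an SD over peaks of 0.50. The median over all 14759 shared DMSO peaks was -0.06, and relative to it the value was 0.02 (-0.04 to 0.05), so that its sign depends on this centring. Lower by more than 0.5 were 62 peaks (19.3%, 15.4 to 24.0%) in 44 genes, against 20.1% of all shared peaks. Higher by more than 0.5 were 27 peaks (8.41%, 5.84 to 11.96%) in 23 genes, against 12.6% of all shared peaks. After centring 51 were lower and 36 higher (15.9% and 11.2%), beside 17.4% and 15.1% of all shared peaks. Before centring, the share that was lower was near that of the whole list, and exceeded the 13.2% of internal coding exons by 6.11 points (1.82 to 11.0). The share that was higher differed from that of 3' UTRs by -4.75 points (-7.40 to -1.15). USF3 alone supplied 10 of the 62 lower peaks, and without it 52 of 294 (17.7%) were lower. Since both lists start at 3, a peak near that value in the DMSO list had no room to be listed lower.

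**Figure D4:**
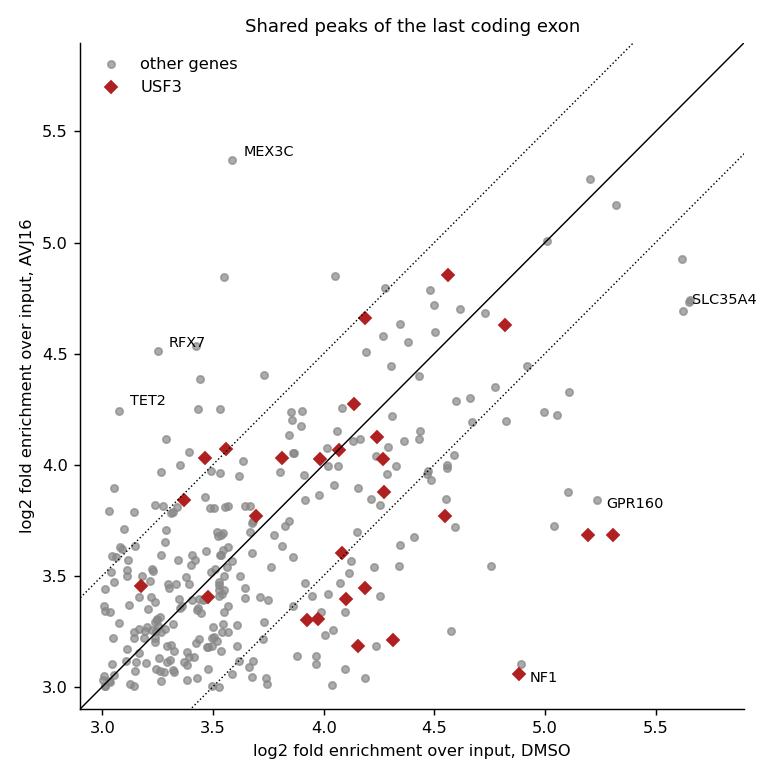
Log2 fold enrichment over SMInput at the 321 shared peaks of the last coding exon, DMSO on the horizontal and AVJ16 on the vertical axis, each point a DMSO peak with its AVJ16 partner (USF3 as diamonds). The solid line is equality and the dotted lines are 0.5 above and below it: 62 points lie below the lower line and 27 above the upper one, with MEX3C highest above and USF3 and NF1 furthest below.

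USF3 carried the most peaks in both lists, 28 with DMSO and 26 with AVJ16, in a last coding exon of 6482 nt that makes up 96.2% of its coding sequence. Of its 28 DMSO peaks 27 had a partner (96.4%), 10 were lower by more than 0.5 and 2 higher, and the median difference was -0.19. The lowest values were side by side, 4448 to 4629 nt upstream of the end of the stop codon. There 4 adjoining DMSO peaks of 5.20, 5.31, 4.88 and 4.31 faced AVJ16 peaks of 3.68, 3.68, 3.06 and 3.21, and the first 2 of them shared 1 AVJ16 peak. The next DMSO peaks upstream, at 4.82 and 4.56, had AVJ16 values of 4.63 and 4.85. Further downstream in the exon, peaks at 4.10, 4.15 and 4.19 with DMSO had values of 3.39, 3.18 and 3.44 with AVJ16, while AVJ16 peaks of 4.44 and 4.21 had no DMSO partner.

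RFX7 and RPRD2 followed. RFX7 had 3 of 11 shared peaks lower and 2 higher, in opposite directions along one exon of 3276 nt: 2 adjoining peaks of 3.05 and 3.251 with DMSO stood at 3.90 and 4.51 with AVJ16, and a peak of 4.10, ending 1231 nt upstream of the end of the stop codon, stood at 3.08. RPRD2, which binds the C-terminal domain of RNA polymerase II, had 11 peaks in each list and none of its 10 shared peaks differed by more than 0.5. NOTCH2 was as even, with 8 shared peaks whose differences ran from -0.07 to 0.17, its DMSO values lying between 3.35 and 4.17. KMT2E, a SET-domain protein of the MLL family, also had no shared DMSO peak beyond 0.5 among 8. ADNP, a homeobox protein of chromatin complexes, had 5 DMSO peaks, all shared and with differences of -0.14 to 0.03, and 9 AVJ16 peaks of which 5 had no DMSO partner, at 3.03 to 3.40. KIAA2026 went the other way, with 9 DMSO peaks of which 5 had no partner, and 4 shared peaks that were all below 0, at -1.32 to -0.17. ADNP2, the paralogue of ADNP, had 4 DMSO peaks of 3.13 to 3.53 and no AVJ16 peak in this exon.

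**Figure D5:**
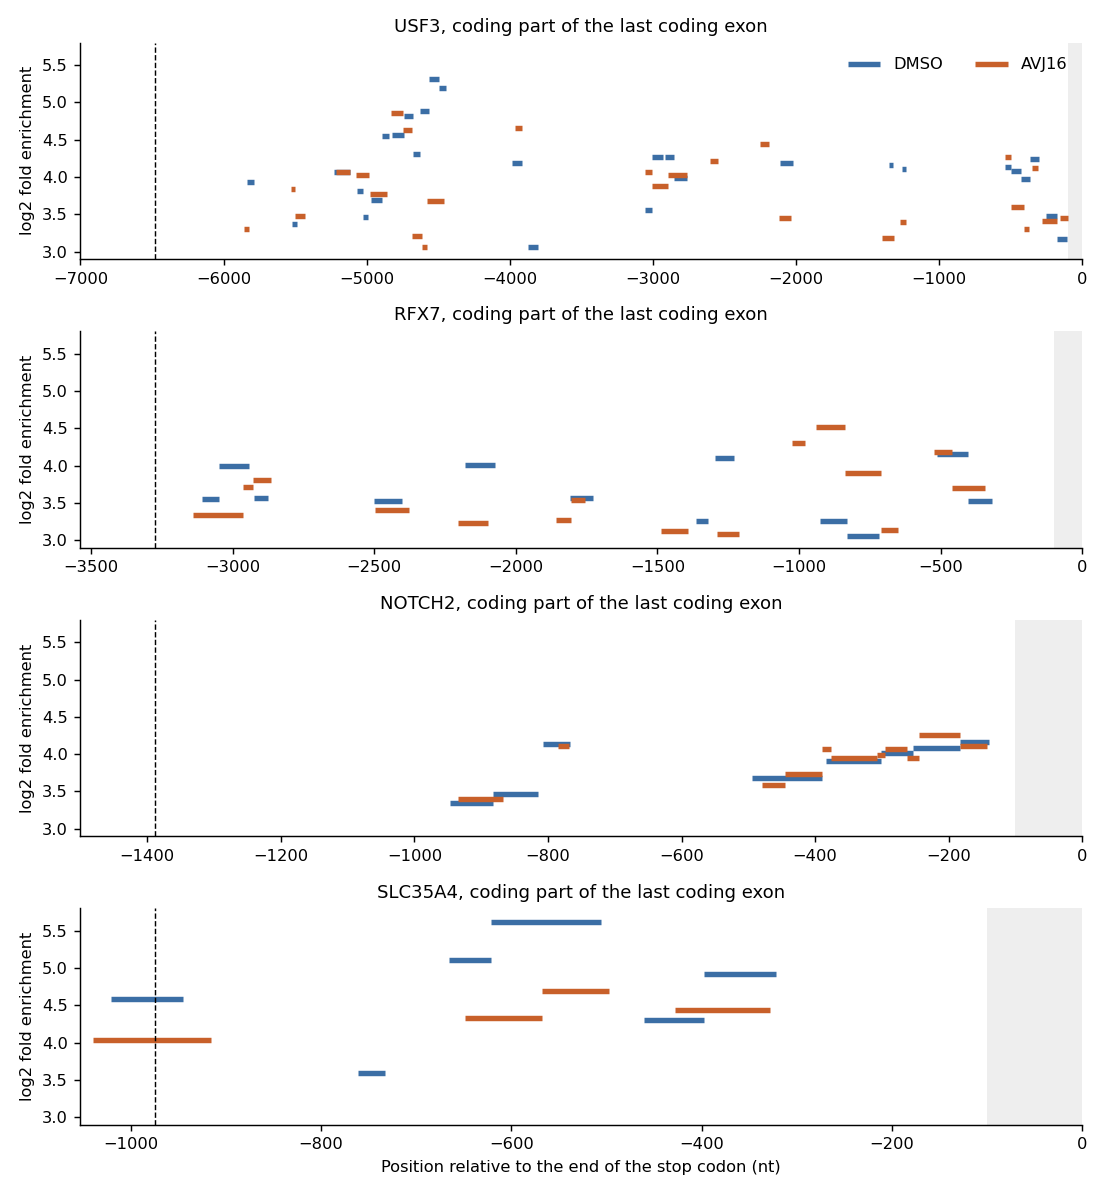
Peaks along the coding part of the last coding exon of USF3, RFX7, NOTCH2 and SLC35A4, each drawn as a bar from its start to its end at its log2 fold enrichment, with position in nt relative to the end of the stop codon, for DMSO (blue) and AVJ16 (orange). The dashed line is the start of the exon's coding part and the grey area the 100 nt left out by the rule. In USF3 the DMSO peaks of up to 5.31 stand above AVJ16 peaks of 3.06 to 3.68, in NOTCH2 both lists lie nearly on each other, and in SLC35A4 the AVJ16 bars are lower at 4 of 5 shared peaks.

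SLC35A4 had 6 DMSO peaks, 5 of them shared, with values of 4.92, 4.31, 5.62, 5.11 and 4.59 against partners of 4.44, 4.44, 4.69, 4.33 and 4.04. Its only shared peak that was not lower was the one at 4.31. GPR160 had a DMSO peak of 5.23 that was split into 3 AVJ16 peaks of 3.88, 3.35 and 3.84, while another of its peaks stood at 3.35 with DMSO and 4.00 with AVJ16. The NF1 peak, in the gene of the RAS-GTPase activating protein neurofibromin, was only 18 nt long, began 1 nt before a last coding exon of 143 nt and stood at 4.89 with DMSO and 3.10 with AVJ16. MEX3C had both directions within 1 exon, with a peak of 3.59 against 5.37 and another of 4.76 against 3.54. TET2 had 5 shared peaks, all above 0, of which 1 (3.07 against 4.24) was beyond 0.5. SAV1, a scaffold of the Hippo pathway, had 1 peak, at 3.42 against 4.53. MET, the receptor tyrosine kinase for hepatocyte growth factor, had 2 DMSO peaks of 4.05 and 3.62 that faced 4.85 and 3.95, and 1 more AVJ16 peak of 5.02 over the same stretch. RNF139 and ZFPM2 also belonged to the largest rises and falls, at 1.30 and -1.32.

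Of the peaks at 4 or above, 8 of 104 lacked a partner in the DMSO list and 23 of 97 in the AVJ16 list. In the DMSO list the highest were in DERPC at 5.02, MRTFB, a coactivator of serum response factor, at 4.90, TUBA1A, an alpha-tubulin with close copies, at 4.75, LRRC8B, a subunit of volume-regulated anion channels, at 4.38 and EXPH5 at 4.31. In the AVJ16 list they were in DSG2 at 5.11, R3HDM1 at 4.65, ZNF853 at 4.63, CASD1, a sialic acid O-acetyltransferase, at 4.47 and USF3 at 4.44. The DSG2 peak was 32 nt long and had a -log10 p of 32.6, and DSG2 had 15 DMSO and 21 AVJ16 peaks in its 3' UTR. A missing partner means only that no peak passed the thresholds of the other list.

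Some of the highest values came from genes with close copies. RPSA2 and PABPC3 are single-exon copies of the genes for ribosomal protein SA and cytoplasmic poly(A)-binding protein, and held the DMSO peaks of 5.65 and 5.62. Their parent genes had peaks in internal coding exons, 30 DMSO peaks of 3.56 to 5.36 in PABPC1 and 7 of 3.64 to 4.49 in RPSA. The TUBA1A peak of 4.75 shared a stretch of 25 nt with 4 other genes, and its close copies TUBA1B and TUBA1C had 5 and 3 DMSO peaks and 4 and 2 AVJ16 peaks in their last coding exons. Of the DMSO peaks in the last coding exon 60 (12.5%) shared at least 1 stretch of 25 nt with a transcript of another gene, and of the AVJ16 peaks 65 (12.6%). Reads confined to such a stretch could belong to either gene, but how reads mapped in these peaks was not examined. Leaving these peaks out gave 66.7% of 420 DMSO peaks and 63.1% of 452 AVJ16 peaks with a partner.

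Several gene groups were looked at as lists. Of 22 genes of WNT receptors and pathway, 13 were bound anywhere in the DMSO list and 3 (LGR4, LRP6 and APC) had a peak in the last coding exon. APC, the scaffold of the beta-catenin destruction complex, had 4 DMSO and 8 AVJ16 peaks in a last coding exon of 6574 nt, and 2 of its 4 shared peaks were higher with AVJ16, at 3.03 against 3.79 and 3.39 against 4.06. LGR4 had 5 DMSO and 7 AVJ16 peaks, with 1 shared peak lower (4.41 against 3.67), 1 higher (3.29 against 4.12) and its strongest at 5.01 in both lists. LRP6, a WNT co-receptor, had 1 DMSO peak of 3.01, only 4 nt long. Of 68 chromatin regulators 38 were bound with DMSO and 7 had such a peak (18.4% of those bound). Among them was EP300, a histone acetyltransferase, with 6 DMSO and 3 AVJ16 peaks. The 3 DMSO peaks of EP300 without a partner were at 3.10 to 3.19. Its 3 shared peaks had a median difference of 0.47, with 1 higher and none lower. Of 114 bound genes of the numbered C2H2 families 15 (13.2%) had a peak in the last coding exon. These exons are long, with a median of 1287.5 nt over the list. Of 24 bound axon guidance and leucine-rich adhesion genes, from a list with a median last coding exon of 311 nt, 4 (16.7%) had one. With AVJ16 2 of 23 (8.70%) had one. The 7 shared peaks of this list were all in LINGO1 and SEMA6A, and 3 of them were lower. Of 94 bound SLC transporter genes of the A subfamilies 6 (6.38%) had one, and 3 of their 9 shared peaks were lower, all in SLC35A4. Of 22 bound genes of the JUN, SOX, FOX, CEBP, IRX and HES transcription factor families 2 had one, FOXM1 with 8 coding exons and FOXO1 with 2. None of the 9 bound genes of a list of 13 known IGF2BP1 targets had one in either list. Over all 4634 genes with an assigned DMSO peak the share was 5.09%, and over all shared peaks of the last coding exon 62 of 321 were lower.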

How the data were processed

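IGF2BP1 eCLIP was performed by the authors in H1299 cells with 2 replicates per treatment. Per their methods, adapters were trimmed with cutadapt, repeat reads discarded, reads mapped with STAR and PCR duplicates removed, peaks were called with CLIPper and compared with SMInput. The build is hg38, per the submitters' processing notes. The deposited lists give, per peak, the authors' log2 fold enrichment over SMInput (3.00 and above) and −log10 p (3.00 to 400). Replicates were combined before deposit, and the rule for this, like the read depth, is not given in the sources used here, so nothing depends on a known depth. Each list was made separately.

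Peaks were placed on the 19061 MANE Select transcripts of GENCODE release 44, whose last coding exon ended in a stop codon in the hg38 sequence in 19041 cases. A peak was given, in this order, to the last coding exon, the stop codon (100 nt on either side), internal coding exons or the 3' UTR. Partners were the peaks with the largest overlap on the same strand, ties going to the higher enrichment, and 1 peak could be partner to several. A difference beyond 0.5 was called lower or higher. Shares have Wilson intervals, differences of shares Newcombe intervals, medians order-statistic intervals, and density ratios exact binomial ones, at 95%. Motif windows were moved to fit the exon. Exons with no room were left out. Named genes were those with the 5 highest peak counts, enrichments, rises, falls and unshared values in each list, and members of 7 gene lists. ADNP2 was named because its values stood out. The members, lists and tests were chosen with earlier results of these data known. Python 3.11.15, pandas 2.3.3 and scipy 1.17.1 were used, and placing and pairing were tested on simulated data.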

Additional observations from a re-analysis of the deposited data

How the results depend on the processing

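Most of the alternatives left the values within their intervals or, for counts, within 1.5 times. A minimum log2 fold enrichment of 4 left 104 DMSO and 97 AVJ16 peaks, and a −log10 p of at least 20 left 93 and 108. Requiring an overlap of 50% of both peaks lowered the shares with a partner to 51.0% and 47.4%, an enrichment of at least 4 raised them to 92.3% and 76.3%, and joining touching peaks gave 62.5% with DMSO. The density ratio between last and internal coding exons was 1.89 and 1.70 by nucleotides covered, and 1.46 and 1.35 against internal coding exons of at least 400 nt only. Centring on the median of all shared peaks turned the median difference from -0.0429 to 0.0169, with 51 peaks lower and 36 higher in place of 62 and 27, and a limit of 1 left 14 peaks lower and 5 higher. Leaving out USF3 and leaving out peaks with shared stretches of 25 nt were chosen after seeing the data, as were the wider group of C2H2 genes, the 3 further motifs of the study and the motif UCAUUC, which had ratios of 1.50 (0.84 to 2.70) and 1.73 (1.04 to 2.87). No paired analysis was possible because each treatment has 1 list with its replicates combined, and for the same reason no replicate could be left out. In these lists differences between treatments are differences between 2 sets of values without error.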
